A study of Mus musculus with 35 samples.

Results

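The genes described here encode the subunits of the mitochondrial respiratory chain and of ATP synthase. They were taken by symbol: Nduf genes of the a, b, c, s and v series for complex I, Sdha to Sdhd for complex II, Uqcr genes for complex III, Cox4 to Cox8 genes for complex IV, Atp5 genes for ATP synthase, and the mt-Nd, mt-Co, mt-Atp and mt-Cytb genes of the mitochondrial genome. Of the 97 protein-coding genes of GENCODE vM21 that matched, 96 were in the bulk table of 53465 genes: 83 encoded in the nucleus and 13 encoded in the mitochondrion. The nuclear genes comprised 35 of complex I, 4 of complex II, 8 of complex III, 19 of complex IV (with Ndufa4, which is now counted there) and 17 of ATP synthase. The mitochondrial genes comprised 7 of complex I, 1 of complex III, 3 of complex IV and 2 of ATP synthase.

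Complexes I to IV pass electrons from NADH and succinate to oxygen; complexes I, III and IV pump protons across the inner mitochondrial membrane, complex II does not, and ATP synthase uses the gradient to make ATP. Complex II is built from nuclear genes alone, whereas the other complexes join nuclear subunits to a few that are translated inside the mitochondrion. Several complex IV subunits have alternative forms whose use differs between tissues. One of them, COX4I2, takes the place of COX4I1 and is known from lung and from contractile cells around vessels.

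Neural, mural, endothelial and microglial cells were sorted from dissociated E14.5 mouse brain and measured as bulk libraries, 3 per population, and as single cells. The neural gate took cells negative for all gate markers, the mural gate PDGFRβ high cells, the endothelial gate PECAM1+ CD102+ cells and the microglial gate CD45 medium cells. The study's text defines microglia by CD11b besides CD45, whereas the deposited well list names the single-cell gate used here by CD45 medium and CD41 positive. Single cells were prepared with 1 chemistry (mCEL-Seq2) for all gates, on 3 plates whose well names give them as wild type; 686 of 994 wells with a gate had more than 1500 transcripts, and those cells were summed by plate and gate. For bulk RNA the neural cells went through a Qiagen mini kit and Illumina TruSeq, and the other populations through a miRNeasy Micro kit, SMART-Seq v4 and Nextera XT. In bulk, population and kit therefore cannot be told apart for the neural cells, and nuclear and mitochondrial genes are given apart. The study's text gives the bulk libraries as coming from 3 wild-type brains, and the strain is not given in the sources used here. The labels do not say that libraries whose titles end in the same number share a brain, so the number enters as a block in an alternative only. How brains map to plates is not given either, and p-values of the single cells measure only the spread between plates. Fewer cells of a type and less RNA per cell cannot be told apart in bulk.

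The bulk libraries held 17638358 to 98414914 reads on genes. In both assays each population had the highest summed level of its own marker list, with all 6 mural markers called higher in mural than in endothelial cells and all 6 endothelial markers lower. Of the fibroblast genes, mural libraries held 3565 to 4954 normalized counts in sum, against 0 to 3.02 in endothelial libraries, where Col1a2, Dcn, Lum and Pdgfra were at 0. Most of the mural sum was Col1a2, at 3125, 3234 and 4049. In the same mural libraries Pdgfra was at 0, 0 and 0.939 and Lum at 138, 0 and 5.64. Summed erythroid genes ran from 12168 to 32942 in endothelial, 8484 to 11347 in neural, 1547 to 1969 in microglial and 242 to 402 in mural libraries, and summed border macrophage genes from 8983 to 11743 in microglia. Neural markers summed to 7382 to 16123 outside the neural libraries and to 119284 to 130160 within them. Much of the sum outside was Nes. It had 10017, 12668 and 12447 in endothelial libraries, near its 10845, 10825.5 and 11359 in neural libraries. On plate 3 the gates kept only 6 to 14 cells each, and the mural markers of its 13 endothelial cells summed to 2508 CPM (transcripts scaled to a common total per sum), against 419 and 97.4 on plates 1 and 2 and at least 9311 in mural sums. The part of these in the results below was not tested, beyond the values without plate 3.

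The start of the mitochondrial gene mt-Co2 and of an annotated nuclear copy, Gm28661, an unprocessed pseudogene on chromosome 1, are shown because a read from there has more than 1 possible origin (GENCODE vM21, GRCm38; both 5′ to 3′, in lower case throughout).
mt-Co2, chrM:7013-7072, plus strand: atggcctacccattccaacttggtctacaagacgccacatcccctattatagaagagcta
Gm28661, chr1:24615506-24615565, minus strand: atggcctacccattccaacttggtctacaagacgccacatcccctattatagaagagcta
Over the 681 bases compared, 681 were identical, and the 60 bases shown are the same in both.

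The promoters of Sdhb, an iron-sulfur subunit of complex II, and Uqcrc1, a core protein of complex III, are shown because both genes were higher in mural than in endothelial cells and carry letters known as binding motifs of regulators of respiratory genes (RefSeq, GRCm38.p6, from 250 bases before to 50 after the start). Capitals mark GCATGCGC, read here as a core of the NRF1 motif, and CCGGAAG, a core of the ETS motif bound by GABPA.
Sdhb, chr4:140961021-140961320, plus strand: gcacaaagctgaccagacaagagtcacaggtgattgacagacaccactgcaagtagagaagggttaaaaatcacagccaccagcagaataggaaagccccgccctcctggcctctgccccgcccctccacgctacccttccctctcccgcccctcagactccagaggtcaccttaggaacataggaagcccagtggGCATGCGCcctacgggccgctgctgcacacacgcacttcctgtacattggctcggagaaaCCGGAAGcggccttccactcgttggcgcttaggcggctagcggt
Uqcrc1, chr9:108936398-108936697, plus strand: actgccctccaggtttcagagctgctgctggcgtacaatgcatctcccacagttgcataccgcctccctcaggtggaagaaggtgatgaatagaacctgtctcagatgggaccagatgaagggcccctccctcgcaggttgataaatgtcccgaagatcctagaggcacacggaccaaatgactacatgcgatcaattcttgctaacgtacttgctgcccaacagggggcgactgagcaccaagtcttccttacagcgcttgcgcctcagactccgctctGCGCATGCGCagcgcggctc
In Sdhb, GCATGCGC began at base 197 and CCGGAAG at base 257, both on the gene's strand. In Uqcrc1, GCATGCGC began at base 283 on the gene's strand and overlapped a match on the opposite strand at base 281.

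A promoter entry was matched for 68 of the 83 nuclear genes, 2 of them by an older symbol, giving 73 promoters. GCATGCGC was found on either strand in 10 of the 73 (13.7%), against 2.71% of all 32851 promoters of that length. CCGGAAG was found in 16 (21.9%), against 8.86% of all, and AAGATGGC, a core of the YY1 motif, in 10 (13.7%), against 2.75%. CCGGAAG ends in the letters with which AAGATGGC begins, so 1 stretch can hold both. Among the 32 promoters of genes that were higher in mural than in endothelial cells the shares were 15.6% for GCATGCGC, 25% for CCGGAAG and 12.5% for AAGATGGC, and among the 37 promoters of genes not called in that comparison they were 13.5%, 18.9% and 16.2%. The matches are a description of letters and were not tested.

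The nuclear genes took their largest share of counts in mural cells. In bulk they made up 1.65%, 1.79% and 1.65% of all counts in the libraries Mu-340, Mu-343 and Mu-346 (mean 1.70% ± 0.08, SD, n = 3), against 1.05% ± 0.11 in endothelial, 0.903% ± 0.05 in microglial and 0.597% ± 0.01 in neural libraries. The mural libraries lay above all others and the neural libraries below all others. Both also held over nuclear-encoded genes alone, where the means were 1.91%, 1.32%, 1.08% and 0.606% in mural, endothelial, microglial and neural libraries, an alternative chosen after seeing the data. Among the single cells the mural share was 1.59%, 1.6% and 1.22% on plates 1, 2 and 3, the endothelial share 1.06%, 0.989% and 0.714%, the microglial share 1.14%, 1.08% and 0.694% and the neural share 1.25%, 1.14% and 0.864%. Mural sums were above those of the other gates on each plate, although mural plate 3 lay below neural plate 1. The neural cells, lowest in bulk, lay within the range of the microglial and endothelial sums or above it.

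**Figure D1:**
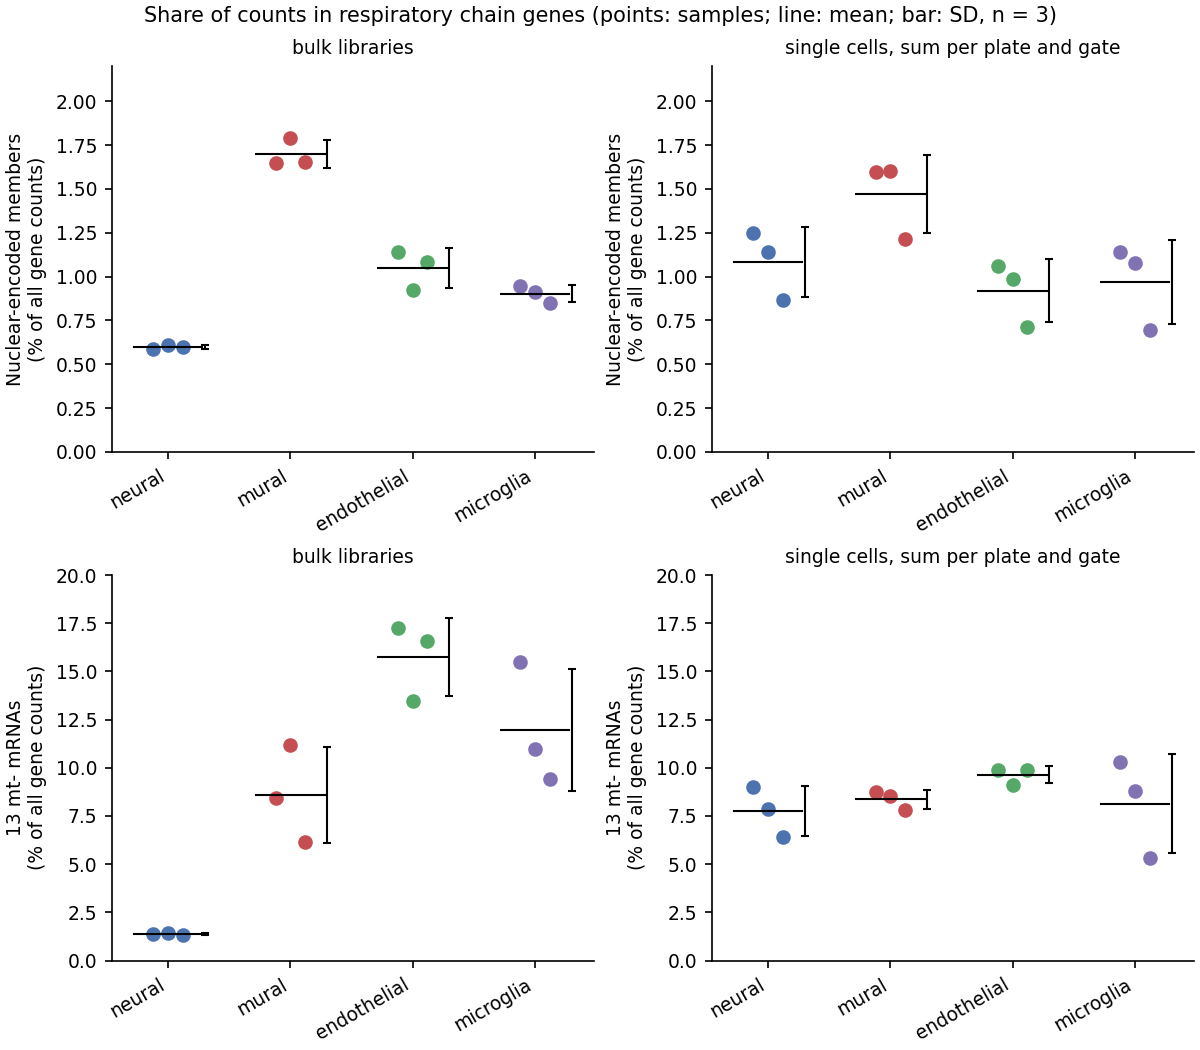
Share of all gene counts (%) held by the nuclear respiratory chain genes (top) and by the 13 mitochondrial mRNAs (bottom), in bulk libraries (left) and single-cell sums per plate and gate (right); points are samples, lines means and bars SD, n = 3. Mural libraries hold 1.65% to 1.79% in nuclear genes, above every other library, while neural bulk libraries alone stand at 1.33% to 1.42% in mitochondrial mRNAs.

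The mitochondrial mRNAs had another order. In bulk the 13 mRNAs together held 17.3%, 13.5% and 16.6% of counts in endothelial, 15.5%, 10.99% and 9.40% in microglial, 8.42%, 11.2% and 6.18% in mural and 1.38%, 1.42% and 1.33% in neural libraries. Endothelial libraries lay above mural libraries without overlap, and microglial libraries overlapped both. The mean shares in the single cells were close together, at 9.64% ± 0.44 in endothelial, 8.36% ± 0.49 in mural, 8.13% ± 2.56 in microglial and 7.75% ± 1.30 in neural sums (SD, n = 3). Mitochondrial ribosomal and transfer RNAs were lowest in neural libraries as well, at a mean of 0.0888% in neural libraries and 2.35%, 3.87% and 4.95% in mural, microglial and endothelial libraries, where kit and population cannot be told apart for the neural cells. The share of Gm10800, a predicted gene that took 4.11% to 28.3% of the transcripts in the single-cell sums, was highest on plate 3 in each gate.

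By level, 69 of the 79 nuclear genes tested in bulk were highest in mural cells, 38 of them without overlap with the next population and 31 with overlap. Of all 19765 genes tested, 20.4% were highest in mural cells and 7.72% were so without overlap. Endothelial cells were highest for 7 genes (2 without overlap) and microglia for 3 (none without overlap), against 21% (6.44% without overlap) and 24.7% (11.9% without overlap) of all genes. Neural cells were lowest for 72 genes, 67 without overlap, against 35.8% and 18.8% of all genes, with kit and population not told apart. Genes were tested where the mean over the 12 libraries reached 10 normalized counts. Left out were Cox8b and Cox8c, muscle and testis forms listed at 0 in every library, Cox7b2, another testis form, at up to 1.34 in neural libraries, and Cox6a2, the heart and muscle form of COX6A, at 20.2, 29.6 and 29 in microglia and 0 elsewhere. Levels per kilobase of exon ranged widely within a population. The medians over the nuclear genes tested were 3189 normalized counts per kilobase in mural, 2393 in endothelial, 1924 in microglial and 814 in neural cells. The highest in mural cells were the complex IV subunit Cox6b1 at 14387, Cox8a at 14229 and the complex III subunit Uqcr10 at 13897, whereas in neural cells they were the catalytic ATP synthase subunits Atp5b at 5325 and Atp5a1 at 5289.

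Mural cells were compared with endothelial cells, the other vascular population, with limma on log2(normalized count + 1). Of the 79 nuclear genes tested, 37 were higher in mural cells, where 13.5% of all 19765 genes were called higher, and 2 were lower, where 14.3% of all were. The remaining 40 did not pass the test. The median difference of the 79 genes was 0.51 on the log2 scale and that of all genes was 0.00. Of the 37, 34 had mural libraries that all lay above the endothelial ones (12.6% of all genes tested were called higher in that way). With the library number as a block 33 were called, without Sdha, Cox4i1, Ndufv2 and Atp5g2. The count was 12 with Mu-343, Ec-343 and their namesakes in the other populations left out, 25 with Mu-340, Ec-340 and namesakes left out and 27 with Mu-346, Ec-346 and namesakes left out.

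By complex, all 4 nuclear genes of complex II passed as higher, 5 of 8 of complex III, 8 of 15 of complex IV, 13 of 35 of complex I and 7 of 17 of ATP synthase. The lower genes were Ndufv1, which carries the flavin site of complex I where NADH is oxidised, and Atp5h, the d subunit of the ATP synthase stalk.

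The largest difference was in Cox4i2 (ENSMUSG00000009876, chromosome 2, 152754173 to 152765037, plus strand, GRCm38). It had 4128, 4399 and 4322 normalized counts in mural libraries, 33.7, 90.8 and 73.9 in endothelial, 108, 22.5 and 86.9 in microglial and 6.68, 3.32 and 5.55 in neural libraries. The mural libraries stood far above all others, and the endothelial and microglial libraries overlapped. The mural minus endothelial difference was 6.11 on the log2 scale (SE 0.63, limma adjusted p = 4.03e-05). Its partner Cox4i1 (chromosome 8, 120668222 to 120674207), the form found in most tissues, had 16944, 17742 and 16786 in mural, 12434, 11834 and 15349 in endothelial, 15069.7, 14516 and 11907 in microglial and 4024, 4044 and 4317 in neural libraries, a mural minus endothelial difference of 0.39 (SE 0.12, limma adjusted p = 0.0312). Per kilobase, Cox4i2 was 32.9% ± 0.63 of both forms together in mural libraries, 0.985% ± 0.48 in endothelial, 1.04% ± 0.63 in microglial and 0.246% ± 0.08 in neural libraries (SD, n = 3). Cox4i2 gave only 6 transcripts in all mural cells and 1 in endothelial cells, and 0 in the other gates of the single cells, too few for the test there. Cox4i1 gave 789 transcripts in the same mural cells, at a mean of 447 CPM against 10.9 CPM for Cox4i2. The mural share of Cox4i2 was thus far smaller in the single cells than in bulk, and the reason was not tested.

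Ndufa4l2, a paralog of the complex IV subunit Ndufa4 that the symbol rule does not take, was also far higher in mural cells than elsewhere. It stood at 26927, 27061 and 26986 normalized counts in mural, at 308, 311 and 207 in endothelial, at 8.32, 1.19 and 25.2 in microglial and at 13.4, 8.86 and 13.5 in neural libraries. Microglia and neural cells overlapped here, both below the endothelial cells, whereas for Cox4i2 microglia overlapped endothelial cells. The mural minus endothelial difference was 6.64 (limma adjusted p = 5.86e-05) in bulk and 5.23 in the single cells (edgeR quasi-likelihood test, adjusted p = 1.37e-14). Ndufa4 itself was not called in bulk: mural libraries held 3639.7, 3706 and 3268 and endothelial libraries 5121, 3429.5 and 4949.9, which overlap, at -0.33 (SE 0.16, limma adjusted p = 0.15). Ndufa4 stood in the single cells at -0.71 (edgeR adjusted p = 0.0703), and at -0.70 with plate as a block (edgeR adjusted p = 0.0374).

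Cox7a1, the heart and muscle form of COX7A, was low throughout, at 62, 113 and 115 normalized counts in mural and 5.32, 0 and 21.1 in endothelial libraries (log2 difference 4.18, SE 0.98, limma adjusted p = 0.00865). The endothelial library at 0 makes this difference larger, and the means were 96.5 and 8.81. Cox7a1 made up 1.99% ± 0.68 of the COX7A forms per kilobase in mural libraries, with Cox7a2 at 52.1% and Cox7a2l at 45.9%. The testis form Cox6b2 made up at most 1.27% of the COX6B forms in any library, with means of 0.620% to 0.949% per population. Of the genes for the c subunit ring of ATP synthase, Atp5g3 held 66.5% to 74.9% of the family per kilobase in every population. These shares depend on the exon length, which was 4.91 kilobases for Atp5g1 and 2.18 for Atp5g3. In the single cells, without scaling by length, Atp5g3 held a smaller share. Atp5g3, Atp5g2 and Atp5g1 had means of 805, 428 and 210 CPM in mural sums. In neural sums they had 416, 306 and 173 CPM, in endothelial 386, 285 and 162 and in microglial 461, 371 and 288. Atp5g3 was higher in mural cells by 0.97 and Atp5g2 by 0.65, while Atp5g1, at 0.51, did not pass (limma adjusted p = 0.0647). Atp5g1 and Atp5g2 share 11.1% and 36.7% of their 50-base words with other annotated transcripts, so their values are uncertain.

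**Figure D2:**
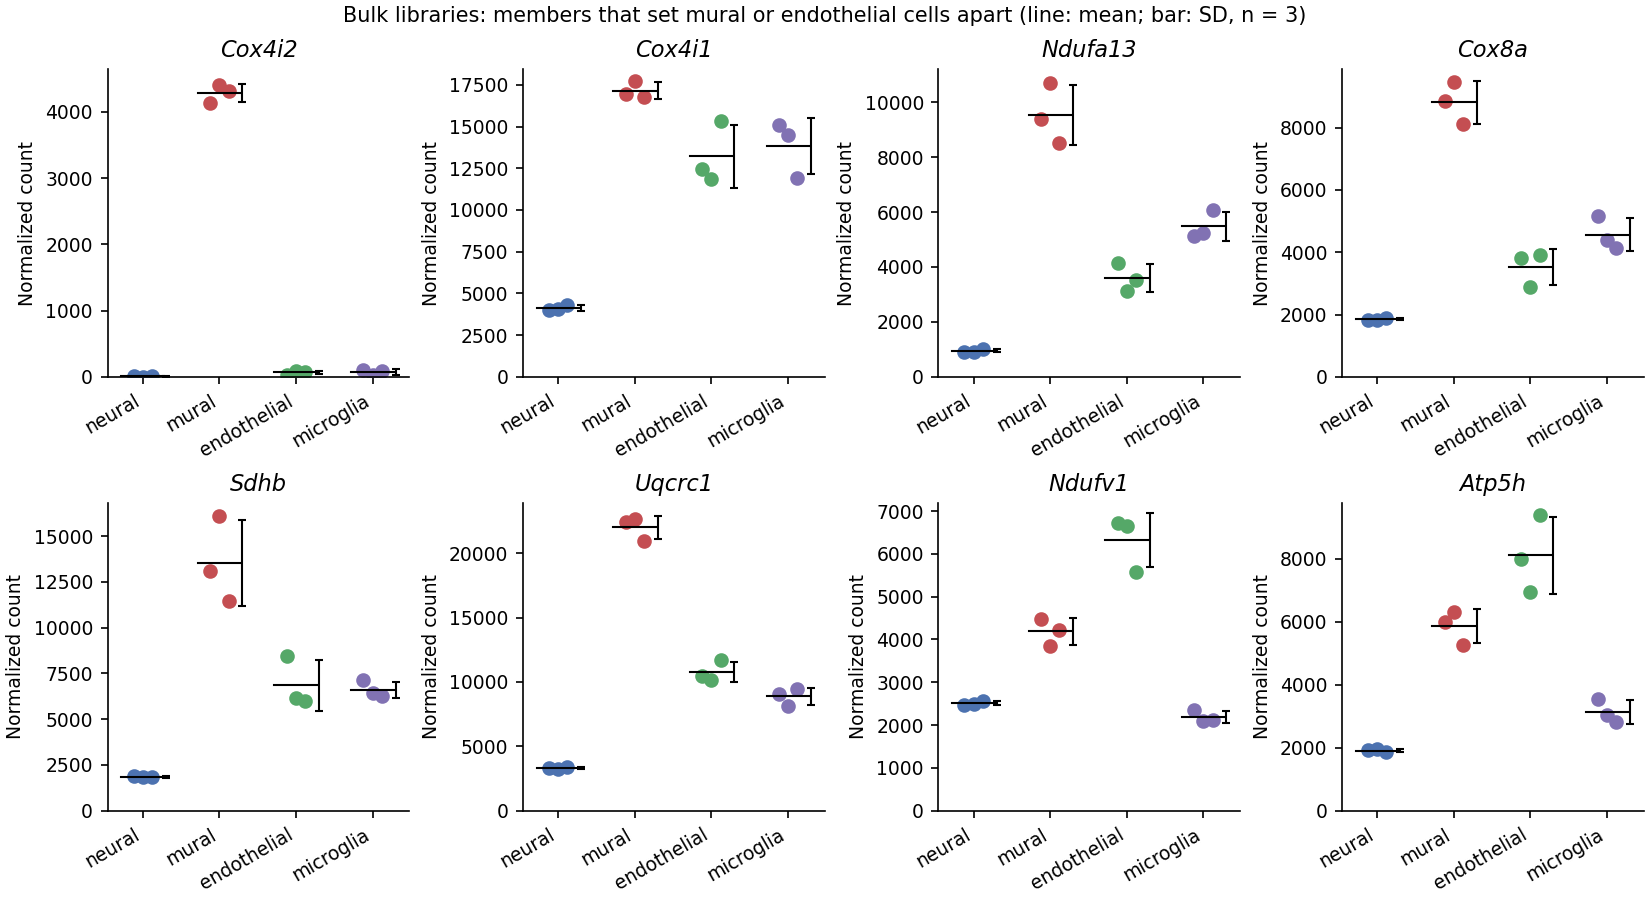
Normalized counts of 8 nuclear genes in the 12 bulk libraries by population; points are libraries, lines means and bars SD, n = 3. Cox4i2 is at 4128 to 4399 in mural libraries and at no more than 108 elsewhere, whereas Ndufv1 and Atp5h are highest in endothelial libraries.

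Beyond the alternative forms, the largest difference was in Ndufa13, an accessory subunit of complex I also known as GRIM-19. It had 9385, 10707 and 8509 normalized counts in mural, 4153, 3124 and 3534 in endothelial, 5122, 5237 and 6088 in microglial and 917, 908 and 1004 in neural libraries. No 2 of these populations overlapped. The mural minus endothelial difference was 1.41 (SE 0.14, limma adjusted p = 3.09e-05).

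Cox8a, the form of COX8 found in most tissues, had 8843, 9471 and 8110 in mural and 3810, 2877 and 3924 in endothelial libraries (1.33, SE 0.14, limma adjusted p = 5.01e-05). Uqcrc1 had 22445, 22646 and 20982 in mural and 10456, 10178 and 11672 in endothelial libraries (1.03, SE 0.09, limma adjusted p = 1.15e-05). For both genes the mural libraries lay above every endothelial library.

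All 4 genes of complex II were called higher in mural cells, although Sdha only just passed. Sdhb, the iron-sulfur subunit, had 13091, 16097 and 11442 normalized counts in mural and 8422, 6127 and 5968 in endothelial libraries, a difference of 0.99 (SE 0.16, limma adjusted p = 0.000802). Sdhc and Sdhd, the membrane anchors, differed by 0.70 and 0.54. Sdha, the flavoprotein with the succinate site, differed by 0.40, with overlapping libraries (8795, 6607 and 8467 in mural, 6671, 5929 and 5390 in endothelial cells) and a limma adjusted p of 0.0496, which became 0.0501 with the library number as a block.

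Other subunits higher in mural cells included Ndufs3 by 0.52, Ndufs7 by 0.70 and Ndufv2 by 0.50 in complex I, Uqcrc2 by 0.76 and Uqcrfs1, the Rieske iron-sulfur protein, by 0.73 in complex III, Cox5b, a nuclear-encoded accessory subunit of complex IV, by 0.67, and Atp5a1 by 0.56 and Atp5b by 0.71 in ATP synthase. Ndufs1, which receives electrons from NDUFV1, did not pass at 0.27 (SE 0.17, limma adjusted p = 0.282). Ndufs3 and Cox5b share 16.1% and 11.9% of their words with other transcripts.

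Ndufv1 ran against this pattern. It had 4483, 3849 and 4228 normalized counts in mural, 6712, 6640 and 5585 in endothelial, 2352, 2103 and 2107 in microglial and 2477, 2489 and 2568 in neural libraries. The endothelial libraries were above all others, and the mural difference was -0.59 (SE 0.12, limma adjusted p = 0.00309). Atp5h had 5999, 6303 and 5255 in mural and 7984, 6936 and 9387 in endothelial libraries, at -0.46 (SE 0.14, limma adjusted p = 0.0286); 19.9% of its words occur in other transcripts, and it was no longer called with the library number as a block or without any 1 of the 3 numbers. In the single cells Atp5h stood on the other side of 0, at 0.16 (SE 0.26, edgeR adjusted p = 0.763), with 169, 184 and 165 CPM in mural sums above the 164, 134 and 85.5 CPM of the endothelial sums, and Ndufv1 stood at -0.15.

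The mitochondrial genes went the other way in bulk. None of the 13 was higher in mural than in endothelial cells, also at an unadjusted p under 0.05 (0 genes) and by edgeR on recovered reads, and 6 were lower, with a median over the 13 of -1.12, where 13.5% and 14.3% of all genes were called higher and lower. These were mt-Co1 (-1.43), the catalytic core of complex IV, mt-Nd1 (-1.18), mt-Nd4 (-1.12), mt-Nd2 (-1.10) and mt-Nd5 (-1.05) of complex I, and mt-Cytb (-0.93), the cytochrome b of complex III. mt-Co1 had 426675, 587710 and 303894 normalized counts in mural and 1278050, 947823 and 1229800 in endothelial libraries, which did not overlap (SE 0.26, limma adjusted p = 0.00221). The count was 1 with Mu-340, Ec-340 and their namesakes left out, and 1 with Mu-346, Ec-346 and namesakes left out. mt-Nd4l alone stood above 0, at 0.27 (SE 0.65).

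The same comparison in the single cells, which are separate libraries of another chemistry, was made with the edgeR quasi-likelihood test on sums per plate and gate. Of 75 nuclear genes tested, 10 were higher in mural cells, where 9.17% of all 9281 genes were called higher. None was lower, where 11.5% of all were (1 gene at an unadjusted p under 0.05, and 0 by DESeq2). With plate as a block 22 were higher and 1, Ndufa4, was lower, and without plate 3 30 were higher and 1, again Ndufa4, was lower. The 10 were also called with the block and without plate 3. DESeq2 called 6 higher, where it called 2.97% of all genes higher, and 3 of the 6 (Ndufa13, Cox7c and Cox6b1) were among the 10. By edgeR no gene passed without plate 1 or without plate 2, which leave 1 full plate and plate 3. Shares of all genes with the block or with a plate left out are not given here. The median over the 75 genes was 0.39, with 65 above 0.

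The 10 genes were Ndufa13 (1.41), Ndufs7 (1.19), Ndufa5 (1.0), Ndufb4 (0.87) and Ndufb9 (0.85) of complex I, Sdhb (1.14) of complex II, Cox5b (1.17), Cox7c (0.86) and Cox6b1 (0.82) of complex IV, and Atp5o (0.96), the stalk subunit of ATP synthase that confers sensitivity to oligomycin. Ndufa13 had 233, 197 and 151 CPM in mural sums and 76.1, 61.3 and 71.2 in endothelial sums of plates 1, 2 and 3 (SE 0.27, edgeR adjusted p = 4.49e-05), without overlap. Sdhb had 174, 141 and 82.4 CPM in mural and 78.2, 50.3 and 0 in endothelial sums (SE 0.32, edgeR adjusted p = 0.00457). Of these genes Ndufb4, Cox7c, Cox5b and Atp5o share 18.3%, 22.1%, 11.9% and 7.58% of their words with other transcripts.

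Of the 75 nuclear genes tested in both assays, 65 (86.7%) had the same sign of mural minus endothelial difference, against 70.4% of all 8530 genes tested in both. Of the 35 called higher in bulk, 33 (94.3%) stood above 0 in the single cells, against 85.3% for all genes called higher in bulk, and 7 were also called there. Of the 2 called lower in bulk, 1 was below 0 in the single cells and none was called. All 13 mitochondrial genes had the same sign in both assays. Of these, 12 were below 0 in the single cells, with a median of -0.35, and none passed by edgeR (1 at an unadjusted p under 0.05). DESeq2 called 3 lower, where it called 3.95% of all genes lower. With plate as a block edgeR called 4, mt-Atp8 at -0.75, mt-Co1 at -0.64, mt-Atp6 at -0.62 and mt-Co3 at -0.56.

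**Figure D3:**
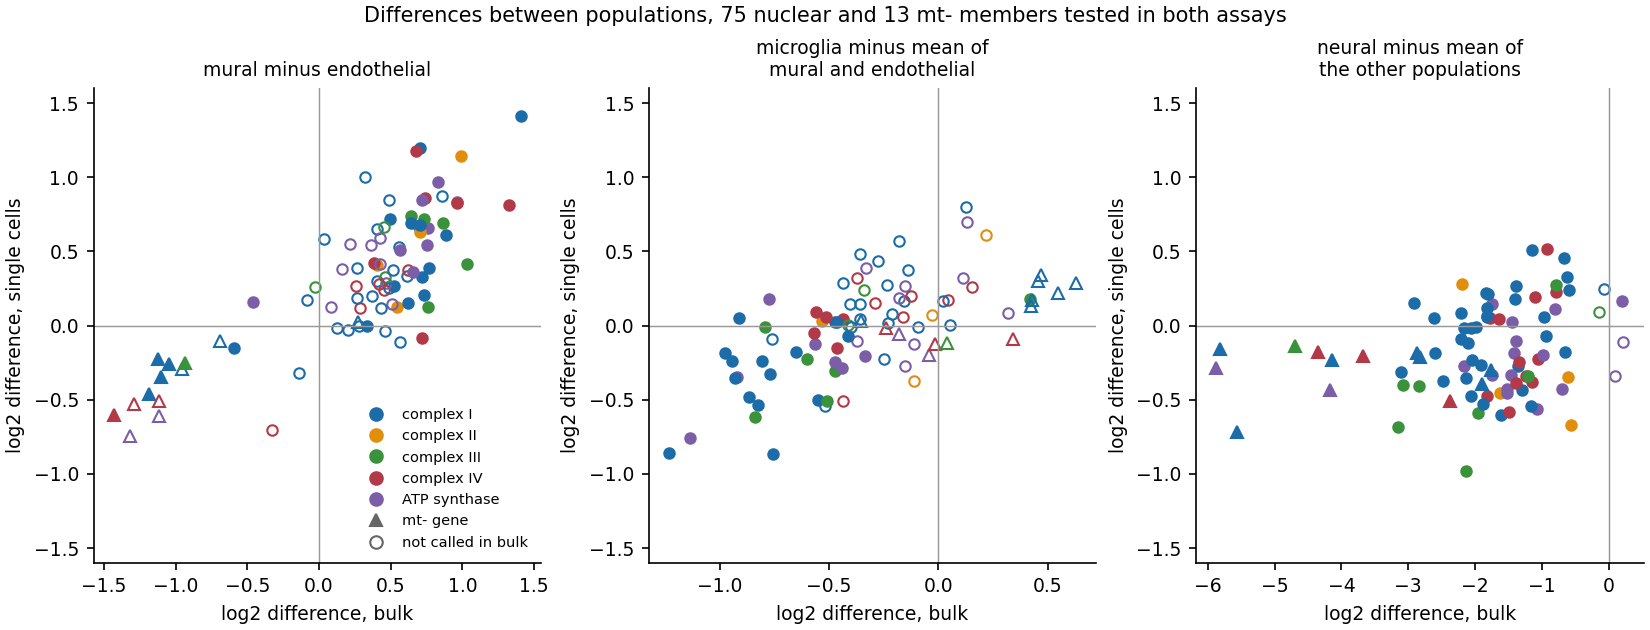
Log2 difference in the single cells against that in bulk for 75 nuclear genes (circles) and 13 mitochondrial genes (triangles), in 3 comparisons; colors are complexes and open symbols genes not called in bulk. In the mural minus endothelial panel 65 of the 75 nuclear genes have the same sign in both assays, and in the neural panel 46 do.

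Microglia were compared with the mean of mural and endothelial cells. In bulk 34 of the 79 nuclear genes were lower, where 17.6% of all genes were called lower, and 1, Uqcrfs1, was higher, where 19.6% were (0.42, limma adjusted p = 0.047). The median was -0.40 against 0.06 for all genes. With each library scaled to a common total of nuclear genes, the median of all genes moved to -0.09, and 52 were lower and none higher, where 21.0% and 16.8% of all genes were. The 34 comprised 15 of complex I, 1 of complex II, 5 of complex III, 6 of complex IV and 7 of ATP synthase, and 18 had microglial libraries below every mural and endothelial library (9.15% of all genes tested were called lower in that way). With the library number as a block Uqcrfs1 was no longer called, and 29 were lower, without Cox6b1, Ndufa12, Ndufb2, Ndufc1 and Uqcr11. The number lower was 23, 19 and 17 with the libraries numbered as Mi-340, Mi-343 and Mi-346 left out in turn, and Uqcrfs1 was called only in the last of these, and not by edgeR on recovered reads.

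After Cox4i2 (-3.08, libraries overlapping the endothelial ones), the largest differences were in Ndufv1, Atp5h and Ndufb11. Ndufv1 differed by -1.23 (SE 0.10, limma adjusted p = 2.77e-06), its 3 microglial libraries below every mural and endothelial one. Atp5h, at 3551, 3043 and 2815 normalized counts in microglia, differed by -1.13 (SE 0.12, limma adjusted p = 2.18e-05), again without overlap. Ndufb11, an accessory subunit of complex I, had 2414, 1967 and 2072 in microglia and at least 3104 in both vascular populations, a difference of -0.98 (SE 0.13, limma adjusted p = 0.000174), and shares 9.55% of its words with other transcripts.

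On the single-cell sums 3 nuclear genes were lower in microglia, where 20.1% of all genes were called lower, and 2 were higher, where 20.3% were. The lower genes were Ndufv1 (-0.86, SE 0.31, edgeR adjusted p = 0.0237), Atp5h (-0.76, SE 0.25, edgeR adjusted p = 0.0123) and Ndufb2 (-0.87), all also lower in bulk, Ndufb2 not with the library number as a block. By DESeq2, which called 9.88% of all genes lower, Atp5h alone of the 3 was called. Ndufv1 had 26.6, 37.3 and 19.7 CPM in microglial sums, below every mural (66.5, 66.2 and 68.7) and endothelial sum (57.3, 69.1 and 114). The higher genes were Ndufa9 (0.80) and Atp5g1 (0.70), of which DESeq2 called none. With plate as a block 3 were higher, Sdhd (0.62) among them, and 4 lower, Uqcrh (-0.58) among them. Without plate 3 the numbers were 4 and 9, without plate 1 they were 0 and 0, and without plate 2 they were 1 and 0. The median over the 75 genes was 0.02, and 45 (60%) had the sign of the bulk difference, against 78.1% of all genes. No mitochondrial gene passed in either assay, with 1 in bulk and 0 in the single cells at an unadjusted p under 0.05, and 0 by edgeR on recovered bulk reads and 0 by DESeq2. Without plate 3 edgeR called 6 in the single cells, all mt-Nd genes.

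Neural cells were compared with the mean of the other 3 populations. In bulk 71 of the 79 nuclear genes were lower, where 31.2% of all genes were called lower, and 1, Atp5b, was higher by 0.21, where 32.9% were. Atp5b was no longer called by edgeR on recovered reads (adjusted p = 0.095) or with the libraries numbered as N-343 or as N-346 left out. The median was -1.47 against 0.09 for all genes, and 66 of the 71 lay below every library of the other populations, against 17.1% of all genes called lower without overlap. All 13 mitochondrial genes were lower, without overlap, with a median of -4.13. Kit and population cannot be told apart here, so single-cell values are given for the genes named below.

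After Cox4i2 (-5.39, with too few transcripts for the single-cell test), the largest nuclear differences were in small accessory subunits. Uqcr10 had 724, 618 and 668 normalized counts in neural libraries and at least 3796 in all others, a difference of -3.16 (SE 0.18, limma adjusted p = 1.22e-07). Ndufa2 had 612, 639 and 716 against at least 3509, at -3.10 (SE 0.20, limma adjusted p = 2.9e-07). In the single cells Uqcr10 stood at -0.68 (SE 0.27, edgeR adjusted p = 0.0376) and Ndufa2 at -0.32 (SE 0.25, edgeR adjusted p = 0.33).

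The genes nearest to 0 were Ndufs1 (-0.07, SE 0.14, limma adjusted p = 0.696), Atp5g2 (0.09), Uqcrc2 (-0.15), Atp5b (0.21) and Atp5a1 (0.22, SE 0.10, limma adjusted p = 0.067), of which only Atp5b passed. Atp5b had 22242, 22721 and 22728 in neural libraries, above the endothelial ones (17037, 15634 and 16859) and below the mural ones (27252, 26002 and 28016). In the single cells Ndufs1 stood at 0.25, Atp5g2 at -0.34, Uqcrc2 at 0.09, Atp5b at 0.16 and Atp5a1 at -0.11, and none of them passed by edgeR.

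In the single cells, where all gates had 1 chemistry, 4 of 75 nuclear genes were lower in neural cells, where 17.3% of all genes were called lower. They were Uqcrb (-0.98), Uqcr10 (-0.68), Sdha (-0.67) and Ndufb11 (-0.60), and Uqcrb shares 25.4% of its words with other transcripts. By DESeq2, which called 8.14% of all genes lower, only Uqcrb was called, and without plate 1 or without plate 2 no gene was (0). None was higher, where 22.5% of all were (2 at an unadjusted p under 0.05, 0 by DESeq2), and with plate as a block 2 were, Ndufa4 and Ndufc2, both at 0.54 (edgeR adjusted p = 0.0317 and 0.0182), while 6 were lower, with Cox8a (-0.58) and Atp5d (-0.56) added. In bulk Ndufa4 and Ndufc2 were lower in neural cells, at -0.93 and -1.15, so these calls ran in opposite directions, and Ndufc2 was also higher without plate 3, at 0.41. No other respiratory chain gene was called in opposite directions by limma in bulk and any of the single-cell settings, in any of the 3 comparisons. The median was -0.18, and 46 (61.3%) had the sign of the bulk difference, against 73.7% of all genes. Of the 70 genes lower in bulk and tested in both, 45 (64.3%) were below 0 in the single cells, against 78.7% for all genes lower in bulk. Among mitochondrial genes mt-Nd6 was lower (-0.72, SE 0.29, edgeR adjusted p = 0.0439), where DESeq2 called mt-Co1 instead, and all 13 had values below 0, with a median of -0.23. With plate as a block 3 were lower, and without plate 3 26 nuclear and 10 mitochondrial genes were. The shares of all genes called lower under these settings are not given here, so the counts cannot be set against them.

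The levels of the mitochondrial genes differed between the assays by gene. With bulk counts also scaled to CPM, mt-Co2, mt-Co3, mt-Atp6, mt-Nd4l and mt-Atp8 stood at 0.0222 to 16.3 CPM in every bulk library, but at 985 to 17328 CPM in the single-cell sums. mt-Cytb stood at 2898 to 3098 CPM in neural and 37898 to 94430 CPM in the other bulk libraries, against 6029 to 11644 CPM in the single cells. mt-Nd6, the mRNA transcribed from the light strand (chrM:13552-14070, minus), stood at 394 to 1623 CPM in mural, endothelial and microglial bulk libraries, above the 54.9 to 118 CPM of their single-cell sums, and at 21.6 to 24.3 CPM in neural bulk libraries, below the 35.4 to 76.6 CPM of the neural sums. Whether the bulk counting used strand is not given in the sources used here, so reads of mt-Nd6 and of heavy-strand RNA opposite it cannot be told apart, and mt-Atp8 and mt-Nd4l overlap their neighbours mt-Atp6 and mt-Nd4.

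Of the 5 low genes, 4 are also those with the most sequence in common with annotated copies, and mt-Atp8 is the other. Of their 50-base words, 100% of mt-Co2, 99.9% of mt-Co3, 99.5% of mt-Atp6, 98.8% of mt-Nd4l and 98.0% of mt-Nd3 occur in transcripts of another gene, as in the mt-Co2 sequence shown above. The share was 62.2% for mt-Nd4, 51.1% for mt-Co1, 8.19% for mt-Nd2, 7.61% for mt-Nd5 and 0% for mt-Nd1, mt-Nd6, mt-Cytb and mt-Atp8. Words were counted among annotated transcripts only, so a share of 0% does not show that mt-Atp8 or another gene lacks a nuclear copy. The shared words lie in 14 other annotated genes, of which the 13 in the bulk table were at no more than 1084 normalized counts in any library. How the bulk counting treated reads with several matching places is not given in the sources used here, and its part in these levels was not tested.

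**Figure D4:**
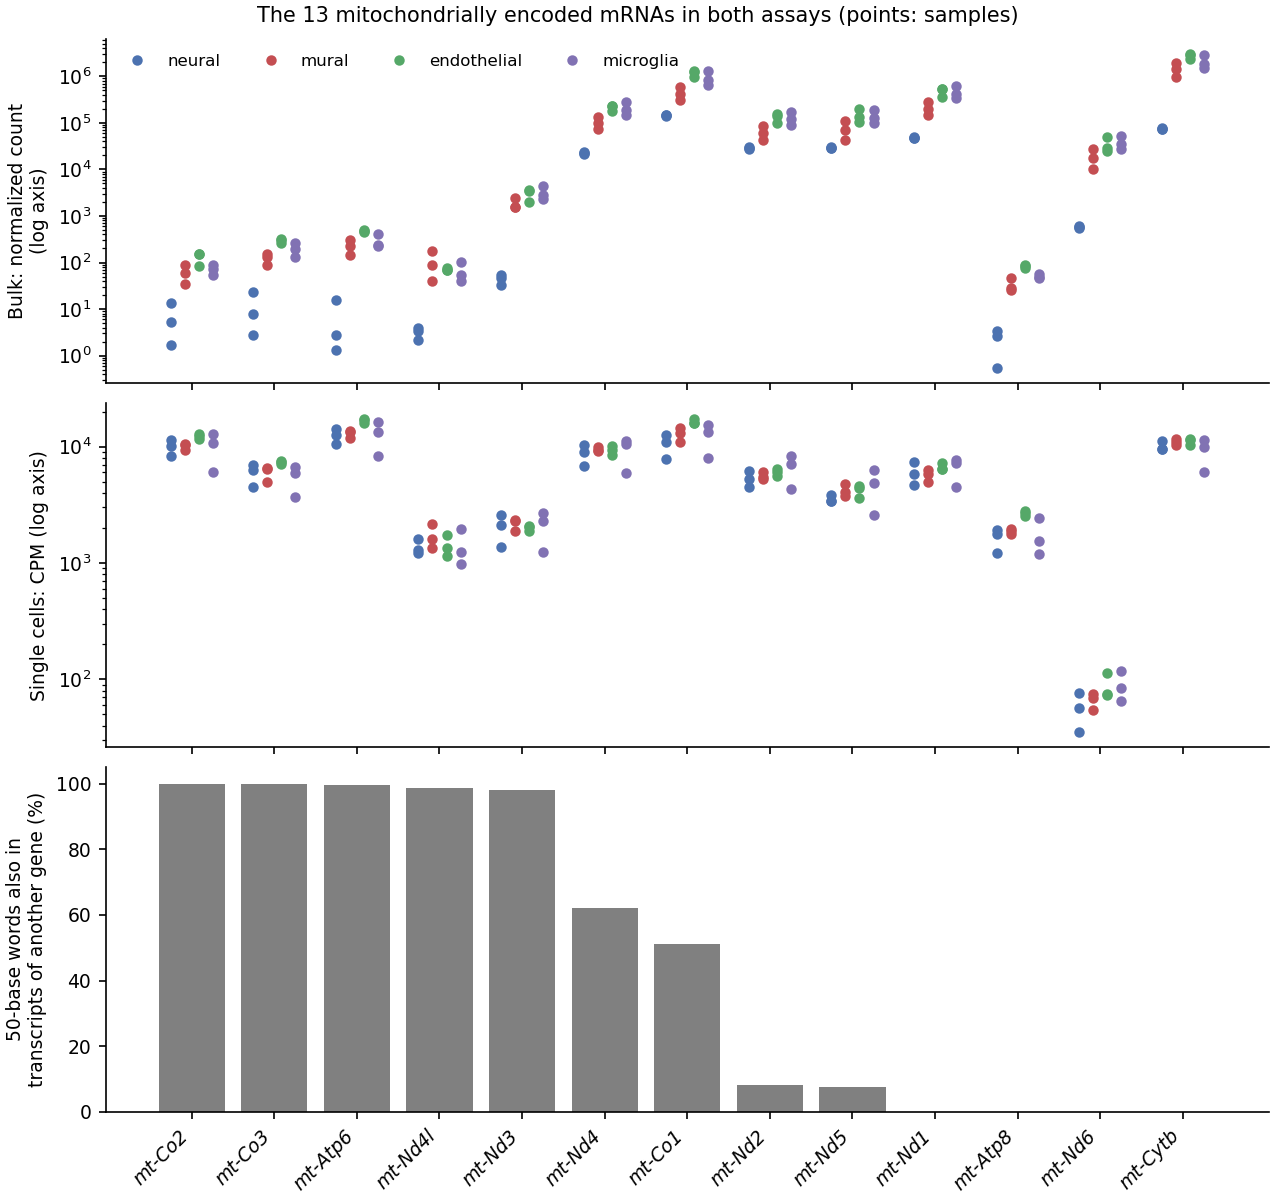
The 13 mitochondrial mRNAs in bulk (top, normalized count, log axis), in single-cell sums (middle, CPM, log axis) and the share of their 50-base words that occur in transcripts of another gene (bottom, %); points are samples, colored by population. mt-Co2, mt-Co3, mt-Atp6 and mt-Nd4l share at least 98.8% and lie at or under 509 normalized counts in bulk, while of the 4 that share 0%, mt-Nd1 and mt-Cytb lie at 46243 or above, mt-Nd6 at 561 or above and mt-Atp8 at or under 90.4.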

How the data were processed

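E14.5 brain cells were sorted and measured as 12 bulk libraries, 3 for each of 4 populations, and as single cells on 3 plates; cells of Mof knockout brains were not used here, since their gates are not given. The symbol rule, gene lists and comparisons were chosen with earlier results of these data known. For bulk, the authors deposited normalized counts per gene, a linear signal scaled per library; their processing notes name STAR, featureCounts, DESeq2, BWA 0.6.2-r126 and mm10, and which tool served which assay is not given in the sources used here. Within each library 100% of values up to 100 reads were whole multiples of 1 factor, within 0.01 read, so reads were recovered (17638358 to 98414914 per library) for an edgeR alternative. For the single cells, the deposited values are expected counts of transcripts by molecular identifier; they were summed over cells with more than 1500 transcripts by plate and gate and rounded.

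Bulk differences were tested with limma 3.58.1 (R 4.3.3, trend) on log2(normalized count + 1), for genes whose mean reached 10. On this scale differences of low genes depend on the pseudocount. It can understate them, and a library at 0 can enlarge them. Sums of single cells were compared by edgeR 4.0.16 (quasi-likelihood, TMM, its low-count filter). Tests were two-sided, over all genes, with Benjamini-Hochberg adjusted p under 0.05 as the call. No test was made over the gene list, and shares of counts are descriptions. Genes named are the 13 mitochondrial genes, families of alternative subunits, core and catalytic subunits, the 3 largest calls in each direction, and genes called in the single cells; some genes that met this rule are not reported here. Exon lengths, coordinates and 50-base words came from GENCODE vM21, in which 53274 of the 53465 bulk genes were found, and promoters from RefSeq. Words were counted only among annotated transcripts. Over 5% of words were shared with other genes for 19 nuclear genes.

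Tested on simulated data for mural against endothelial cells, limma called 35 of 100 genes changed 2-fold and 100 of 100 changed 4-fold among 19765, with 10 false calls, and edgeR on single-cell sums 7 and 73 of 100 among 9281, with 0 false calls. Plates are a batch shared by all gates, so counts with plate as a block are given beside those they change. Other alternatives were DESeq2 1.42.0, edgeR on recovered reads, a pseudocount of 5, no minimum, other scalings, cells over 3000 transcripts and each replicate left out. Python 3.11.15, pandas 2.3.3, numpy 2.4.6 and matplotlib 3.10.9 were used.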

Additional observations from a re-analysis of the deposited data

How the results depend on the processing

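For 69 single-gene differences, 552 combinations of a difference and an alternative setting were tried. Of these combinations 414 kept direction and call, 134 lost the call, 3 gained it and 1 reversed. The reversal was in Ndufv1 in single-cell mural minus endothelial cells. Its difference, not called at -0.15, ranged from -0.47 without plate 1 to 0.0054 without plate 3. The shares of mitochondrial mRNAs moved by less than 1 SD under their alternatives. Over nuclear-encoded genes alone, chosen after seeing the data, the nuclear shares of bulk mural, endothelial and microglial libraries (1.70%, 1.05% and 0.903%) were 1.91%, 1.32% and 1.08%, each moved by more than 1 SD, and the neural share moved by less. Causes of the changes below were not tested.

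In bulk, the number of nuclear genes higher in neural cells (1) was 2 with no minimum, 0 with edgeR on recovered reads and 2 with a common nuclear total. Those lower in mural than in endothelial cells (2) were 1 with edgeR. With a common nuclear total those higher in microglia (1) were 0 and those lower (34) were 52. The library numbers are not stated to mark a shared brain, and deviations of same-numbered libraries correlated at -0.05 to 0.08 over 18 pairs. With the number as a replicate block, nuclear genes higher and lower in mural cells were 33 and 1, with 7 mitochondrial genes lower; in microglia 0 and 29; in neural cells 1 and 70. Leaving out 1 number gave 12 to 27 nuclear genes higher and 0 to 1 lower in mural cells with 1 to 6 mitochondrial calls, 0 to 1 higher and 17 to 23 lower in microglia, and 0 to 1 higher and 69 lower in neural cells.

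In the single cells, where plates pair the sums (correlations -0.03 to 0.10 over 18 pairs), nuclear genes higher in mural cells (10) were 6 with DESeq2, 6 with no filter and 22 with plate as a replicate block, which also gave 1 lower. Mitochondrial calls there (0) were 3 with DESeq2 and 4 with the block. Nuclear genes higher in microglia (2) were 0 with DESeq2 and 0 with no filter. In neural cells those lower (4) were 1 with DESeq2 and 8 with mitochondrial genes and Gm10800 left out of the scaling, those higher (0) were 2 with the block, and mitochondrial calls (1) were 3 with it. Leaving out 1 plate gave 0 to 30 higher, 0 to 1 lower and 0 to 3 mitochondrial calls for mural cells, 0 to 4, 0 to 9 and 0 to 6 for microglia, and 0 to 1, 0 to 26 and 0 to 10 for neural cells, with the high ends without plate 3. Shares of all genes called with the block or with a plate left out are not given beside these counts. In the simulation 7 of 100 genes changed 2-fold were called at this depth, so a missed call here says little about small differences.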

Other observations

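Genes around the respiratory chain were counted from lists of related genes. Carriers and neighbours of the chain, such as cytochrome c and the ATP/ADP carriers, had 8 of 11 genes higher in mural than in endothelial cells in bulk and none lower (0), with a median of 0.86. The called genes included Cycs, cytochrome c (0.70), Cyc1, the cytochrome c1 of complex III (0.86), Slc25a3, the phosphate carrier (0.87), and Slc25a4 and Slc25a5, which exchange ATP for ADP (0.96 and 1.03). Slc25a5 was also called in the single cells, at 0.91 (edgeR adjusted p = 0.0443), where 3 of 11 were higher, against 9.17% of all genes. Higd1b, a small membrane protein counted with them, had 6744, 11415 and 10144 normalized counts in mural libraries, 0, 0 and 137 in endothelial, 2.38, 0 and 0 in microglial and 0 in each neural library, and it was called higher in mural cells in both assays.

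Of the genes of the tricarboxylic acid cycle, 5 of 13 were higher in mural cells and none lower (0), among them Suclg2 (1.46) and Mdh2 (0.71). Assembly factors, which help build the complexes and are not part of them, had 7 of 46 higher and none lower (0), led by Timmdc1 (1.66) and Tmem126b (1.56), both needed for complex I. Of the genes of mitochondrial DNA and RNA upkeep 2 of 20 were higher, Tfam (0.92), which packs mitochondrial DNA, and Mterf3 (0.65). Of the mitochondrial ribosomal proteins 7 of 77 were higher and 4 lower. Among 10 regulators of biogenesis 2 were higher, the coactivator Ppargc1b and Esrra (0.89), and 3 were lower, Esrrg, Pprc1 (-1.19) and Yy1 (-0.69). Ppargc1b had 435, 483 and 965 normalized counts in mural and 128, 41.2 and 0 in endothelial libraries, a difference of 5.07 that the endothelial library at 0 makes larger: without Mu-346, Ec-346 and namesakes it was 2.64. It no longer passed there (limma adjusted p = 0.0514) or without Mu-343, Ec-343 and namesakes (5.84, limma adjusted p = 0.112). Esrrg was at 0 in each mural library and at 23, 15.6 and 73.9 in endothelial libraries, so its fitted difference depends on the pseudocount and is not given. Without Mu-346, Ec-346 and namesakes the call was lost for Esrrg (limma adjusted p = 0.0521), Pprc1 (0.118) and Yy1 (0.115). Yy1 also lost it without Mu-340, Ec-340 and namesakes (limma adjusted p = 0.0756). Esrra lost it with the library number as a block (limma adjusted p = 0.0724) and with each number left out in turn. By edgeR on recovered reads (adjusted p = 0.0707) and with no minimum Esrra was not called either. It kept the call with a pseudocount of 5 and with a common nuclear total. In the single cells Ppargc1b was higher by 2.83 (edgeR adjusted p = 1.44e-05), and of the assembly factors 0 of 33 were higher and 1, Foxred1, was lower. Of all genes, 13.5% and 14.3% were called higher and lower in bulk, and 9.17% and 11.5% in the single cells.

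In bulk microglia against vascular cells, the numbers higher and lower were 3 and 4 of 11 for carriers and neighbours, 1 and 4 of 13 for the tricarboxylic acid cycle, 1 and 8 of 46 for assembly factors, 1 and 3 of 20 for DNA and RNA upkeep, 4 and 15 of 77 for ribosomal proteins and 3 and 0 of 10 for regulators, where 19.6% and 17.6% of all genes were called higher and lower. In bulk neural cells against the rest they were 0 and 11, 3 and 6, 7 and 18, 7 and 3, 2 and 57 and 6 and 1 in the same order, where 32.9% and 31.2% of all genes were called higher and lower, with kit and population not told apart.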
